A study of Mus musculus with 33 samples.

Results

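The 2 mature arms of the miR-126 precursor, mmu-miR-126-3p and mmu-miR-126-5p, were followed in mouse lung after carbon black had been placed in the airways. They were chosen by name, as every probe that the arrays assign to these names, and are 2 of 650 miRNAs on the array (611 of them of mouse) and 2 of the 171 mouse miRNAs that were bright enough to test. Lungs came from 33 female C57BL/6 mice, an inbred laboratory strain, with 1 array per animal. Exposed mice received a single dose of 0.162 mg Printex 90, a carbon black of nanosized particles, by way of the trachea. Their lungs were taken at day 1 (6 mice), day 3 (4 mice) or day 28 (5 mice). Control mice, 6 at each day, received the same vehicle without particles, which was saline in purified water with 10% lavage fluid freed of cells. The RNA was total RNA enriched with small RNA from lung tissue, so it mixes all cell types of the lung.

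A miRNA precursor folds into a hairpin, and the enzymes that trim it release a short duplex with 1 strand from each arm. Usually 1 strand is kept in the silencing complex, where bases 2 to 8 of the mature strand, the seed, pair with target messenger RNAs, and the other strand is degraded or kept at a lower level. The miR-126 precursor lies in an intron of Egfl7, a gene of endothelial cells, and miR-126-3p is known as an abundant miRNA of the endothelium that lowers the signalling inhibitors Spred1 and Pik3r2 and so sustains the response to vascular endothelial growth factor. The 5p strand of the same hairpin is known in endothelium for lowering Dlk1, an inhibitor of Notch signalling.

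The hairpin and the 3p strand are shown because both members come from this 1 transcript, so that a change in its transcription would reach both. RefSeq (GRCm38.p6) places the hairpin on chromosome 2, plus strand, at chr2:26591357-26591429, and the 3p strand at chr2:26591402-26591423. The gene table of that assembly lists Egfl7, on the same strand, as the sole other gene that holds the whole hairpin. In the hairpin the 22 bases of miR-126-3p are in capitals, and in the mature strand the seed is in capitals.
mir-126 hairpin: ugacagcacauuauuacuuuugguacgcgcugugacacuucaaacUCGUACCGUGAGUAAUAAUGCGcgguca
miR-126-3p: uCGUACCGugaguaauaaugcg
In the minimum free energy fold of the 73 bases by RNAfold, 19 of the 22 bases of the 3p strand were paired, with partners between bases 7 and 27 of the hairpin, the arm that gives rise to miR-126-5p. The seed of miR-126-3p was shared by 0 other of the 1738 mature mouse miRNAs in the RefSeq table. A further hairpin, Mir126b, is listed on the minus strand and overlaps this one over 58 bases.

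The arrays carried 4 probes for the arms, each printed on 10 spots. Both probes of miR-126-3p were above background on 33 of 33 arrays, and the brighter of them (A_54_P2286) stands for the miRNA. Its unscaled signal ran from 2000 to 12600 units over the arrays, with a median coefficient of variation between spots of 5.89%. The 5p strand was dim: its brighter probe (A_54_P1035) read 1.14 to 44.7 units and was above background on 23 of 33 arrays, with a median coefficient of variation between spots of 27.2%, and its other probe (A_54_P4367) was above background on 0 of 33 arrays. The 5p values therefore carry far more measurement error than those of 3p. Signals of different probes are not comparable as levels, so the arms are compared only through how each changed.

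Before scaling, arrays differed in brightness. The 75th percentile over the 156 probes seen on all arrays lay between 187 and 1211 units, with a median of 365 in day 1 controls, 635 in day 3 controls and 985 in day 28 controls. In exposed mice the medians were 666, 625 and 481 for the same days. The values below were scaled to an equal 75th percentile and are given as log2. Slides are numbered 1 to 9, and slide 1, with 4 arrays, stood apart in the signal of miR-126-5p and in the gap between the 3p probes, as described below. On every slide the control arrays lay in the first positions and the exposed arrays in the later ones, so position on the slide and exposure cannot be told apart. A smaller number of cells of a type and less of the miRNA per cell cannot be told apart in these lung extracts either.

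The 6 groups lay within a narrow range in their means of miR-126-3p. Its group means spanned 0.33 on the log2 scale, a 1.26-fold range, from 12.67 in control mice at day 1 down to 12.34 in exposed mice at day 28. In day 1 controls its lowest, median and highest log2 signals were 12.37, 12.70 and 12.97, in day 3 controls 12.38, 12.67 and 12.90, and in day 28 controls 12.42, 12.51 and 12.70. In exposed mice at day 1 they were 12.43, 12.65 and 12.71, and all 6 arrays lay within the range of the 6 controls. The 4 exposed arrays of day 3 read 12.57, 12.65, 12.73 and 12.73, and all lay within the range of their controls too. At day 28 the 5 exposed arrays read 12.03, 12.18, 12.35, 12.58 and 12.58, and 3 of them lay below every control of that day while the other two lay among them. Ordered by mean, the groups ran from control day 1 through exposed day 3, control day 3, exposed day 1 and control day 28 to exposed day 28, and each neighbouring pair differed by less than the larger SD of the pair, with overlapping ranges.

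**Figure D1:**
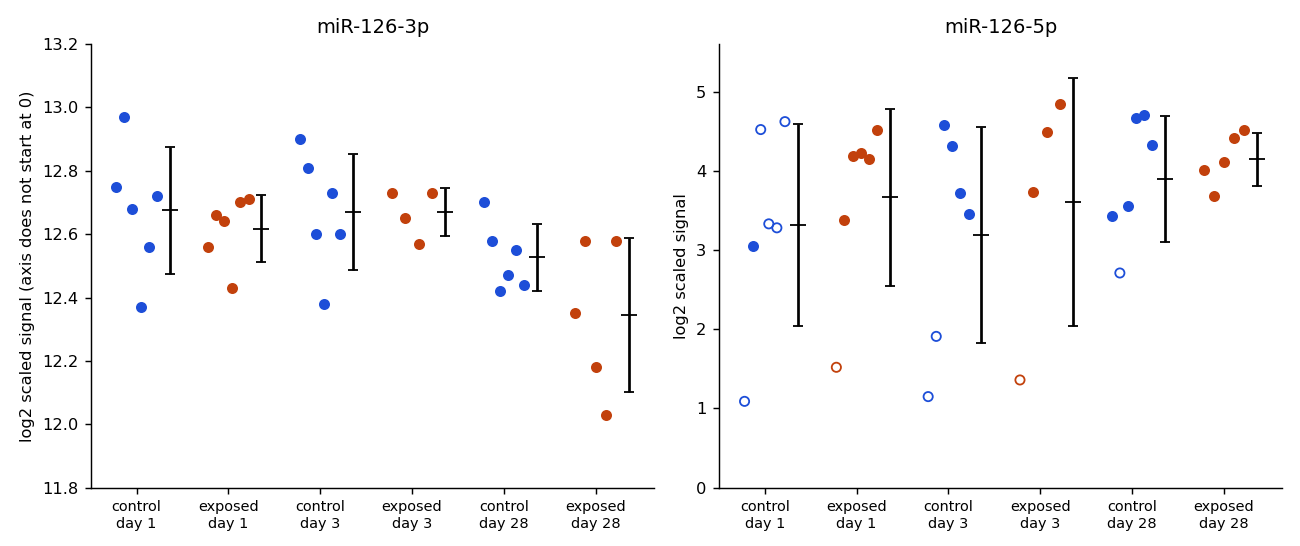
Log2 scaled signal of miR-126-3p (left) and miR-126-5p (right) on each of the 33 arrays, by treatment and day (blue, control; orange, exposed), with filled points for arrays above background, open points for arrays below it, and bars for the mean ± SD of each group. The 3p values lie between 12.03 and 12.97 and the 5p values between 1.09 and 4.84.

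The first question was whether the particles changed either arm at each day. With limma, 0 of the 2 arms passed an adjusted p of 0.05 at day 1, day 3 or day 28, against a background of 0% of the 171 miRNAs at each of these days. At an unadjusted limma p under 0.05 the background was 15 miRNAs (8.77%), 2 miRNAs (1.17%) and 13 miRNAs (7.6%), and neither arm was among them. The 3p change was -0.057 ± 0.0967 (SE, n = 6 and 6) at day 1, with a limma adjusted p of 0.794. At day 3 it was 0.0027 ± 0.108 (n = 4 and 6, limma adjusted p = 0.996). At day 28 it was -0.19 ± 0.101 (n = 5 and 6, limma adjusted p = 0.737), with a 95% interval from -0.39 to 0.023. Without exposed replicate 23 it was -0.11. Other scalings gave larger day 28 values, -0.35 with quantile normalization, -0.43 with the 75th percentile over all probes and -0.80 unscaled, and none of these passed limma's threshold (adjusted p = 0.173 to 0.486). The main estimate corresponds to 0.879 of the control level, and its interval takes in no change. The change was -0.19 ± 0.0741 (SE) with slide as a fixed block and -0.19 ± 0.0778 with slide as a random block. The dimmer 3p probe gave -0.26 ± 0.113 and the mean over probes -0.22 ± 0.0997. These fits, like quantile normalization, passed limma's threshold before adjustment but not after it. The sign turned, to 0.083 ± 0.166, in the authors' deposited series table alone. The dimmer 3p probe gave the same order at day 28, with 11.25, 11.32, 11.66, 11.77 and 11.87 in the exposed mice and 11.73 to 11.94 in the controls. The low values of day 28 were in exposed replicates 20 and 23 on both 3p probes. Replicate 20 kept 6 of 10 spots on each probe. Its coefficients of variation between spots were 26.1% on the brighter probe, the highest of the 33 arrays, and 14.2% on the dimmer. Those of replicate 23 were 4.83% and 6.51%.

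miR-126-5p was much more scattered. Its group means ran from 3.19 in controls at day 3 to 4.15 in exposed mice at day 28, a 1.94-fold range, with SDs of 0.34 to 1.56 within groups. In day 1 controls its lowest, median and highest log2 signals were 1.09, 3.31 and 4.62, in day 3 controls 1.15, 3.59 and 4.58, and in day 28 controls 2.71, 3.95 and 4.70. In exposed mice at day 1 they were 1.52, 4.17 and 4.51. The 4 exposed arrays of day 3 read 1.36, 3.73, 4.49 and 4.84, and the 5 of day 28 read 3.68, 4.01, 4.11, 4.41 and 4.52. The ranges of exposed and control mice overlapped at each day, and neighbours in the order of means, exposed day 28, control day 28, exposed day 1, exposed day 3, control day 1 and control day 3, differed by less than the larger SD. The probe was above background on 1 of 6 control and 5 of 6 exposed arrays at day 1, 4 of 6 and 3 of 4 at day 3, and 5 of 6 and 5 of 5 at day 28. The day 1 controls also had the lowest median brightness before scaling, 365 units with a range of 187 to 985, and the part of brightness in these detection counts was not tested.

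Exposure changes of miR-126-5p were above 0 at each day and small beside their error. They were 0.35 ± 0.622 (SE, n = 6 and 6, limma adjusted p = 0.794) at day 1, 0.42 ± 0.695 (n = 4 and 6, limma adjusted p = 0.996) at day 3 and 0.25 ± 0.652 (n = 5 and 6, limma adjusted p = 0.986) at day 28. The 95% interval at day 1, from -0.93 to 1.62, takes in changes of either sign. Without control replicate 1 of day 1, an array of slide 1, the day 1 value was -0.10. With all 4 arrays of slide 1 left out, the values were 0.33, 0.76 and 0.25 at days 1, 3 and 28 (limma adjusted p = 0.79 to 0.911). For the mean over the 3 days, 1 of 171 miRNAs was called (0.585%; 17 miRNAs, 9.94%, at an unadjusted p under 0.05), namely miR-689, which is named here after its value was seen, and neither arm was: the 3p change was -0.080 ± 0.059 (limma adjusted p = 0.618) and the 5p change 0.34 ± 0.379 (limma adjusted p = 0.779). By limma's F test the change with exposure did not differ between days past the threshold for 3p (adjusted p = 0.994) or 5p (adjusted p = 0.994), against a background of 0% (7 miRNAs, 4.09%, at an unadjusted p under 0.05).

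Time alone was examined within each treatment. Over the 3 control days, limma's F test gave an adjusted p of 0.517 for 3p and 0.714 for 5p, with 2 of 171 miRNAs called (1.17%; 30 miRNAs, 17.5%, at an unadjusted p under 0.05). Over the 3 exposed days, 3p had an unadjusted p of 0.0109 and a limma adjusted p of 0.187, and 5p an adjusted p of 0.872, with 0% called and 22 miRNAs (12.9%) at an unadjusted p under 0.05. The exposed means of 3p were 12.62 ± 0.11 (SD, n = 6), 12.67 ± 0.08 (n = 4) and 12.34 ± 0.24 (n = 5) at days 1, 3 and 28. For 3p over exposed days, the unadjusted p of limma's F test was 0.111 with the dimmer 3p probe and 0.119 with quantile normalization. It was 0.09 with the total gene signal, 0.372 with the percentile over all probes and 0.719 in the authors' deposited series table. It stayed under 0.05 averaged over probes (0.0256), with normexp (0.0192) and with slide as a fixed block (0.0102).

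The spread of miR-126-5p followed the slides. Slide accounted for 87% of its variance over the 33 arrays, rank 3 of 171 miRNAs, against 55.5% for 3p and a median of 49.6% over the miRNAs tested. The scan day accounted for 81% of the 5p variance, while the 6 groups accounted for 9.27%. Of the 3p variance the 6 groups accounted for 36.8%, against a median of 20.3% over the miRNAs tested. On the 4 arrays of slide 1, which held 2 control and 2 exposed mice, 5p read 1.09, 1.15, 1.36 and 1.52. On the other 29 arrays it read 1.91 to 4.84, so that slide 1 did not overlap them. The 3p probes also set slide 1 apart: the brighter probe exceeded the dimmer by 1.11 to 1.20 on slide 1 and by 0.63 to 0.87 elsewhere. The level of 3p itself on slide 1, 12.56 to 12.90, lay among the values of the other slides.

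**Figure D2:**
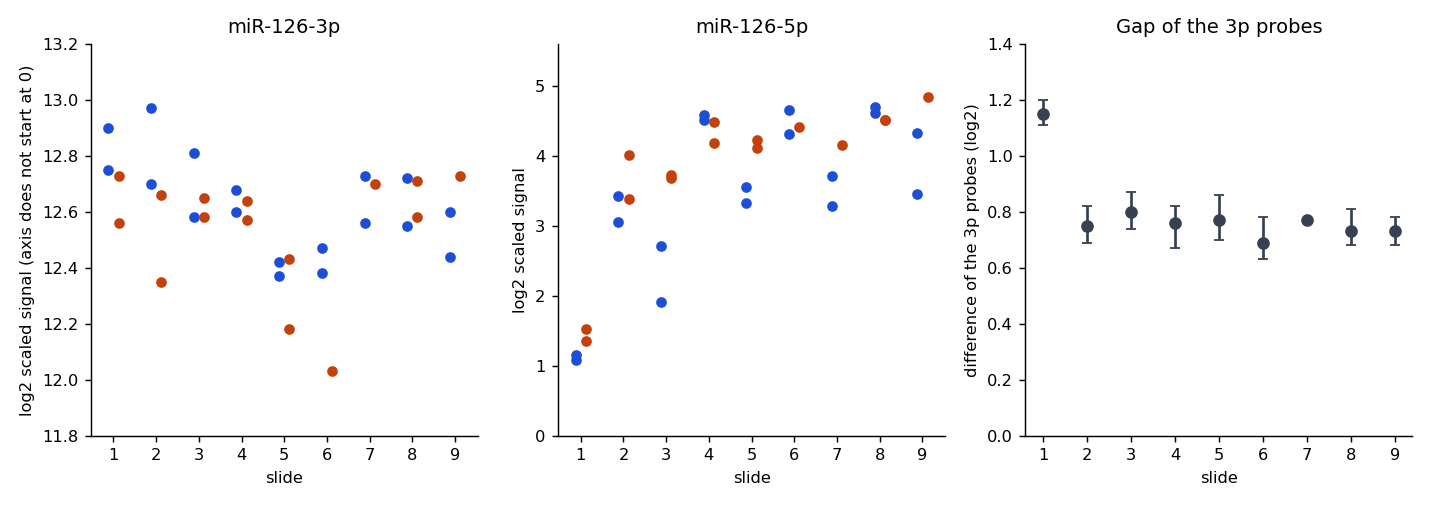
Log2 scaled signal of miR-126-3p (left) and miR-126-5p (middle) by slide (blue, control; orange, exposed) and the log2 gap of the 3p probes by slide (right; points are slide means, bars run from the lowest to the highest array). On slide 1 the 5p values are 1.09 to 1.52 and the probe gap 1.11 to 1.20, both apart from the other 8 slides.

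Since each slide held exposed and control mice of the same day, exposure was also compared within slides, over 15 pairs of 1 exposed and 1 control mouse (6 of day 1, 4 of day 3 and 5 of day 28). This comparison over all pairs was chosen after the data were seen, and its p-values are not adjusted. miR-126-5p was higher in the exposed mouse in 10 of 15 pairs, by 0.47 ± 0.63 on average (SD, n = 15, exact sign-flip permutation p = 0.00977). The 5p probe was above background on 23 of 33 arrays and on 0 of the 4 of slide 1, so some pairs held arrays below background. With scaled values under 10 set to 10, 5p was higher in 8 of 15 pairs, by 0.27 ± 0.50 (SD, exact sign-flip permutation p = 0.0479). miR-126-3p was higher in 5 of 15 pairs, with a mean of -0.10 ± 0.18 (exact sign-flip permutation p = 0.0394). Of the 171 miRNAs, 16.4% were higher in as many pairs as 5p or more, and 33.9% in as few as 3p or fewer. Of the 9 slides, 6 gave 2 pairs each, so the pairs are not independent. With 1 mean per slide, 5p was higher on 6 of 9 slides, by 0.51 ± 0.64 (SD, n = 9, exact sign-flip permutation p = 0.0547), and 3p on 3 of 9, with a mean of -0.10 ± 0.20 (exact sign-flip permutation p = 0.199). Neither arm thus passed 0.05 when slides were the unit. Array brightness itself was higher in 7 of 15 pairs, with a mean log2 difference of 0.049 (exact sign-flip permutation p = 0.85). That mean joins days of opposite sign. The brightness difference was 0.66 at day 1, -0.13 at day 3 and -0.54 at day 28 (exact sign-flip permutation p = 0.125, 0.875 and 0.25). By day, 5p differed by 0.35 ± 0.50 in 6 pairs, 0.83 ± 0.92 in 4 pairs and 0.33 ± 0.52 in 5 pairs, and none of these passed 0.05 (exact sign-flip permutation p = 0.188, 0.25 and 0.25, where 4 and 5 pairs cannot go below 0.125 and 0.0625).

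The within-array difference of the arms, 5p minus 3p, removes any scaling factor common to both probes. It was higher in the exposed mouse in 11 of 15 pairs, by 0.58 ± 0.61 (SD, n = 15, exact sign-flip permutation p = 0.00232), and leaving out any 1 pair kept the mean between 0.48 and 0.64. With 1 mean per slide it was higher on 7 of 9 slides, by 0.60 ± 0.57 (SD, n = 9, exact sign-flip permutation p = 0.0195). Without slide 1 it was higher on 6 of 8 slides, with a mean of 0.62 (exact sign-flip permutation p = 0.0391). Some of these pairs, too, held arrays below background for 5p. The value over the 15 pairs was 1.08 with the total gene signal, 0.65 with quantile normalization and 0.38 with scaled values under 10 set to 10. It did not pass under 3 other settings: with normexp background correction the mean was 0.089 (exact p = 0.689), with the probes of each arm averaged 0.31 (exact p = 0.0938), and it was 0.10 in the authors' deposited series table (exact p = 0.322). With 1 mean per slide these settings gave 0.14, 0.37 and 0.09 (exact sign-flip permutation p = 0.59, 0.113 and 0.25). Compared between groups without regard to slide, the exposed mean of the arm difference exceeded the control mean by 0.41 at day 1, 0.42 at day 3 and 0.43 at day 28, and the day 28 mean exceeded the day 1 mean by 0.73 in controls and 0.75 in exposed mice. None of these 5 comparisons passed (exact permutation p = 0.177 to 0.652, adjusted p = 0.577 to 0.652 over the 5). Without control replicate 1 the day 1 value was -0.054, and without control replicate 2 of day 3, also on slide 1, the day 3 value was -0.037. The change from day 1 to day 28 was 0.27 in controls without control replicate 1 and 0.34 in exposed mice without exposed replicate 3 of day 1, and it took these same values with all of slide 1 left out.

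**Figure D3:**
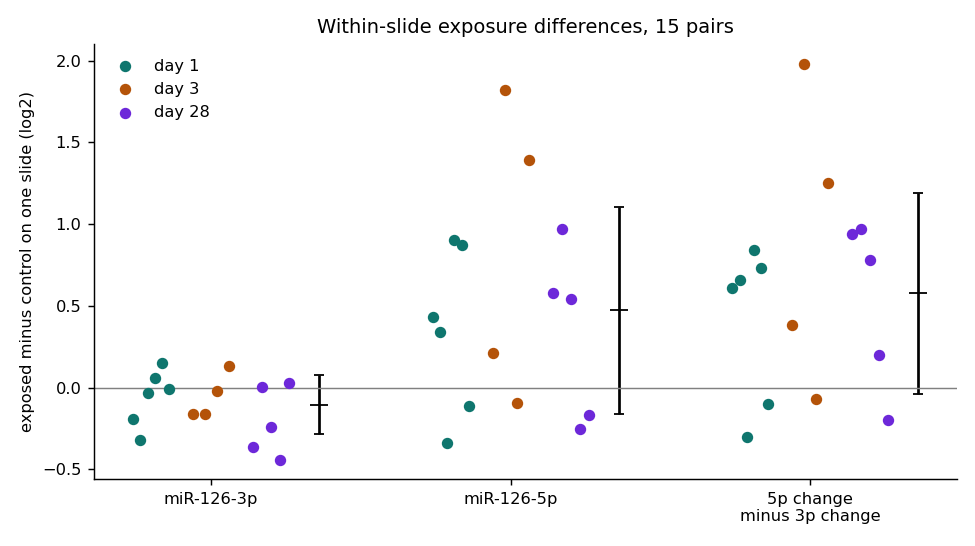
Exposed minus control log2 signal within each of 15 same-day pairs on a slide, for miR-126-3p, miR-126-5p and the 5p change minus the 3p change (green, day 1; orange, day 3; purple, day 28), with the mean ± SD over the 15 pairs at the right of each column. The 5p change is above 0 in 10 pairs and the arm difference in 11, while the 3p change is above 0 in 5.

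With slide as a fixed term in limma, miR-126-5p passed the threshold for the mean of 3 days: its change was 0.46 ± 0.134 (SE, adjusted p = 0.0372). In that fit 14 of 171 miRNAs passed (8.19%), 4 of them higher in exposed lungs (2.34%), which were miR-689, miR-146b and miR-21 beside miR-126-5p, the first 3 named after their values were seen. miR-126-3p did not pass, at -0.10 (limma adjusted p = 0.163). The call for 5p was lost with slide as a random block (0.42 ± 0.236, limma adjusted p = 0.296), without slide 1 (0.51, limma adjusted p = 0.056) and when 1 of 14 single arrays of the 33 was left out (highest limma adjusted p 0.0913, without exposed replicate 33 of day 3). The estimate stayed between 0.39 and 0.52 over those 33 fits. This fit counts both pairs of a slide as independent, as the test over 15 pairs does. Of 10 other settings run together with the fixed slide term, 2 kept the call and 8 did not. With normexp background correction beside the fixed slide term it was 0.040 ± 0.151 (limma adjusted p = 0.998).

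**Figure D4:**
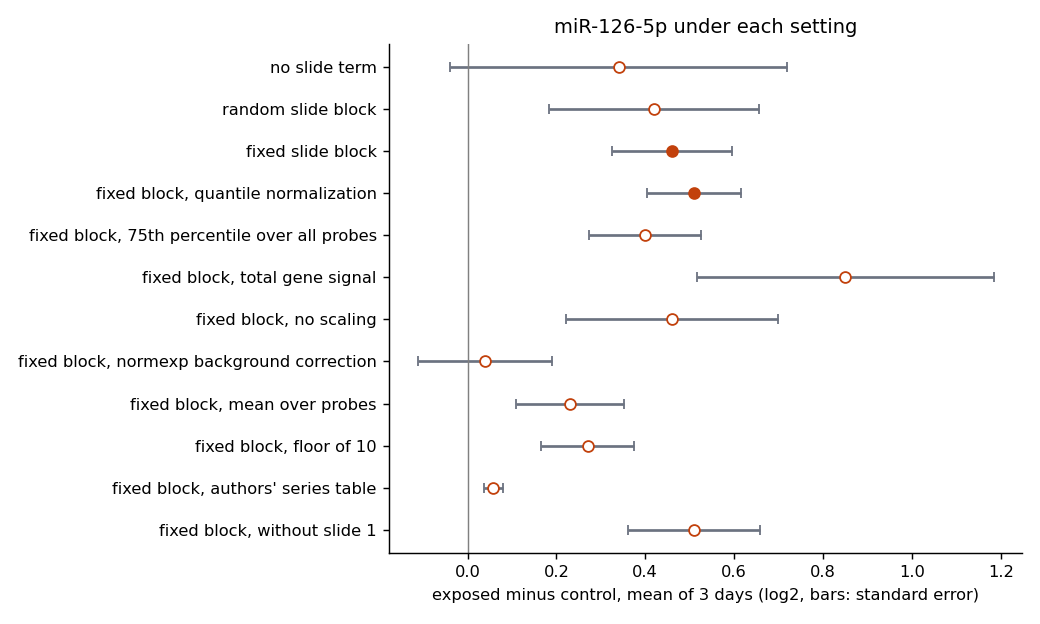
Exposed minus control log2 change of miR-126-5p, mean of 3 days, with its standard error, with no slide term, with slide as a random or fixed block, and with the fixed block under other choices of scaling, background, probe and arrays; filled points have a limma adjusted p under 0.05. The filled points are the fixed block alone (0.46) and with quantile normalization (0.51), and the point nearest 0 is that with normexp background correction (0.040).

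Across the 33 arrays the arms did not move together. Pearson's r of their log2 signals was -0.40 (permutation p = 0.023, adjusted p = 0.092 over 4 relations) and Spearman's rho was -0.30 (permutation p = 0.096). Without the 2 arrays farthest from the median of 3p, r was -0.40 again, and without slide 1 it was -0.27 (permutation p = 0.16). With group means subtracted it was -0.31 and with slide means subtracted -0.29. In the authors' deposited series table the sign turned, at 0.16. Neither arm tracked the brightness of the array, with r of -0.14 for 3p and 0.11 for 5p (permutation p = 0.43 and 0.56).

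Other hairpins with both arms tested give a frame for this. Arms were paired where their names matched apart from the arm suffix or star, which gave 16 precursors. Pairs named otherwise were missed, such as miR-24 and the star strand of miR-24-2, both of them tested. Over the 16, the SD of the arm difference over 33 arrays had a median of 0.36. That of miR-126 was 1.18, second among the 16 to miR-139 at 1.98. The miR-126-5p probe was above background on 23 of 33 arrays, and the part of its measurement error in this SD was not tested. The r between arms had a median of 0.42 over the 16, and that of miR-126, -0.40, was the second lowest after miR-30b and its star strand at -0.47. Slide accounted for 85.6% of the variance of the miR-126 arm difference, 81.8% of that of miR-139 and a median of 40.3% over the 16.

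**Figure D5:**
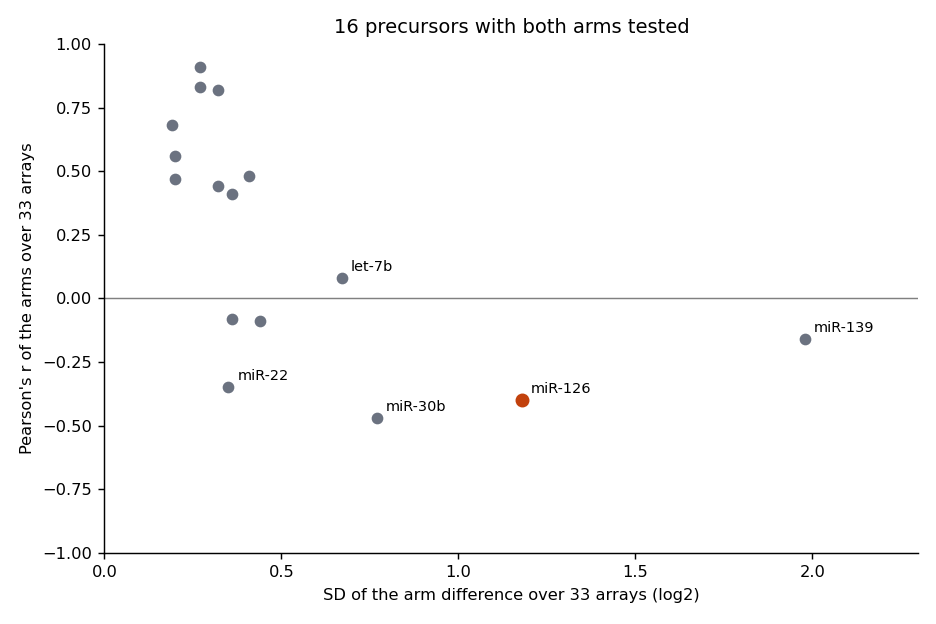
SD of the within-array difference between arms (x axis, log2) against Pearson's r of the arms over 33 arrays (y axis). The points are the 16 precursors with both arms tested and paired by matching names, with miR-126 in orange. miR-126 lies at an SD of 1.18 and an r of -0.40, with miR-139 and miR-30b as its nearest companions at low r and high SD.

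The miRNAs whose log2 signals were most like each arm over the 33 arrays differed between the arms. For 3p they were miR-23b (r = 0.70), miR-676 (0.69), miR-23a (0.68), the star strand of miR-30c-2 (0.67) and miR-10a (0.67), and with slide means subtracted these r were 0.63 to 0.78. For 5p they were miR-30b (r = 0.96), miR-30e (0.91), the star strand of miR-24-2 (0.90), miR-26a (0.89) and miR-99b (0.85). With slide means subtracted the 5p values were 0.75, 0.45, 0.59, 0.36 and 0.13, and slide accounted for 80.5% to 89.4% of the variance of these 5 miRNAs. These points share slide and scaling, so the values are descriptions. The exposure differences of these 5 miRNAs were 0.047 to 0.23 in the fit with slide as a fixed term, and none of the 5 passed the threshold (limma adjusted p = 0.206 to 0.627), where that of 5p was 0.46.

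Other miRNAs known from endothelium and vessel growth were examined as a list of 33 names, of which 32 were on the array and 25 were tested. With limma, 0 of 25 passed at each day, against 0% of the 171 miRNAs tested. At days 1, 3 and 28, 11, 13 and 9 of the 25 were above 0. The 25 members had medians of -0.043, 0.011 and -0.083, against -0.094, -0.036 and -0.035 over all 171. Their r with miR-126-3p had a median of 0.40, against 0.22 over all miRNAs tested. The highest values were those of miR-23b (0.70), miR-23a (0.68) and miR-10a (0.67). The lowest were those of miR-214 (-0.30), miR-10b (-0.27) and miR-31 (-0.16). Their r with miR-126-5p had a median of -0.55, against -0.19 over all tested, and ran from -0.68 for miR-10a and miR-100 to 0.71 for miR-181a. Slide means were not subtracted for these r, and slide accounted for 87% of the variance of 5p. The values are therefore descriptions, and the part of slide in them was not tested. At day 28 the 25 members ran from -0.23 for miR-210 to 0.45 for miR-10b (limma adjusted p = 0.986 and 0.624), where the value of 3p was -0.19.

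Markers of other cells were read in the same fits. In none of the 11 lists did a tested member pass limma's threshold at any of the 3 days. Of all 171 miRNAs tested, 0% passed at these days. The summed scaled signal of the 3 tested myeloid markers (miR-223, miR-142-3p and miR-142-5p) ran from 572 to 1810 in controls and from 866 to 2300 in exposed mice at day 1, and their median change was 0.51 at that day, 0.016 at day 3 and 0.15 at day 28. The 9 tested epithelial markers had median changes of -0.065, -0.075 and -0.044. The 3 tested erythroid markers had medians of -0.022, 0.46 and -0.20. The 3 tested markers of striated muscle, of 7 on the array, had median differences of 0.64, -1.35 and -1.35 at days 1, 3 and 28. Their summed signal ran from 27.3 to 1020 in controls and from 32 to 971 in exposed mice at day 1. At day 28 it ran from 33.9 to 255 in controls and from 27.7 to 77.0 in exposed mice. At day 28, the day of the largest 3p difference, the medians were 0.14 for 2 lymphoid, -0.10 for 3 platelet and 0.022 for 3 fibroblast markers. The median of 8 lung-enriched markers was -0.085. Smooth muscle and liver had 1 tested marker each, with changes of 0.022 and 0.28. The part of these cells in the values of miR-126 was not tested.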

How the data were processed

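Lung RNA of 33 mice was measured on 1-colour Agilent miRNA arrays, and groups were taken from the sample labels. The deposited scanner files hold spot intensity, background-subtracted by Feature Extraction 10.7.3.1, per the file headers. A table of log2 values by the authors served as an alternative. Set against the scanner files, each of its columns had a correlation of 0.991 or more with the logged median signal, with column medians of 5.41 to 5.43. Its scaling and centring remain unknown.

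Flagged spots were left out, the spots of a probe averaged, each array scaled to an equal 75th percentile over the 156 probes above background on all arrays, values under 1 set to 1, and log2 taken. The brightest probe stood for a miRNA. Mouse miRNAs above background (over 50% of spots) on at least 4 arrays of a group were tested, 171 in all, with limma (version 3.58.1 under R 4.3.3) and a design of 6 group means, an intensity trend and Benjamini-Hochberg adjustment, two-sided; the code was tested on simulated data. Arm differences had exact permutation tests, within-slide pairs and slide means exact sign-flip tests, correlations 1e+05 permutations, and the hairpin was folded with RNAfold 2.7.2. The normexp alternative (offset 50) was run on median spot and background signals. Replicate numbers name single animals and pair none.

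The miRNAs named were both arms, the 5 most like each arm, and members of the lists. Members and lists (11) were chosen with earlier results of these data known. The number of arrays limits the precision.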

Additional observations from a re-analysis of the deposited data

How the results depend on the processing

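Exposure changes and time tests were recomputed under other backgrounds, scalings, filters, probes and slide terms, arm comparisons under fewer of these, and both with each array left out in turn. The 5p probe was read near background, and why its values moved between settings was not tested. The 3p change at day 3 was near 0, and its sign turned in 8 settings: -0.039 with the 75th percentile over all probes, -0.033 with the dimmer 3p probe, -0.053 within slides, -0.015 averaged over probes, -0.070 unscaled, -0.13 with quantile normalization, -0.045 with slide as a fixed block and -0.027 as a random block. The 3p change at day 1 turned to 0.13 with the percentile over all probes, 0.60 unscaled, 0.012 with normexp and 0.022 with quantile normalization, and that at day 28 to 0.083 in the authors' deposited series table. The 5p change at day 1 turned to -0.13 averaged over probes and -0.42 with normexp, and that at day 28 to -0.37 unscaled. The arm difference at day 1 turned to -0.077 averaged over probes and -0.43 with normexp, and that at day 28 to -0.075 in the series table. From day 1 to day 28 in controls it turned to -0.029 averaged over probes and -0.70 with normexp, and passed the threshold at 0.51 in the series table (exact permutation, adjusted p = 0.0433). The arms' correlation turned to 0.16 in the series table. The F value over control days passed unscaled (5.33 for 3p, 3.85 for 5p) and with normexp for 5p (4.73), settings in which 113 and 119 miRNAs passed against 2. The mean change over days passed for 3p (-0.10) and 5p (0.47) over the 15 within-slide pairs, both unadjusted. With 1 mean per slide neither passed under the main scaling, while 5p passed with quantile normalization (0.53) and the total gene signal (1.08). In limma the mean change of 5p passed with slide as a fixed block (0.46). With that block it also passed without intensity trend (0.46) or with quantile normalization (0.51). Within slides, the arm difference lost its call in the series table (0.10), averaged over probes (0.31) and with normexp (0.089). The total gene signal gave larger values: 1.38 for 5p at day 1, and for the arm difference 1.47 at day 1 and 1.9 from day 1 to day 28 in controls.

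With 1 array left out, the 3p change ran from -0.12 to 0.0028 at day 1 (above 0 without control replicate 5) and from -0.055 to 0.048 at day 3 (below 0 without control replicates 14, 21 or 31 or exposed replicates 4 or 33), and from -0.25 to -0.11 at day 28, the 5p change from -0.10 to 0.78 at day 1, from 0.0071 (without exposed replicate 33) to 1.17 (without exposed replicate 4) at day 3, from 0.010 (without control replicate 10) to 0.41 at day 28 and from 0.19 to 0.59 for the mean of 3 days (0.39 to 0.52 with the fixed block), and the arm difference from -0.054 to 0.82 at day 1, from -0.037 to 1.18 at day 3, from 0.19 to 0.61 at day 28, and from day 1 to day 28 from 0.27 to 0.98 in controls and from 0.34 to 0.93 in exposed mice. Under the fixed block the 5p call was lost without control replicates 1 or 5 (day 1), 9 or 31 (day 3) and 6, 10, 18 or 28 (day 28), or exposed replicates 19 (day 1), 11 or 33 (day 3) and 8, 12 or 20 (day 28). Over all settings the number of miRNAs called ran from 0 to 6 at day 1, 0 to 1 at day 3, 0 to 4 at day 28 and 0 to 14 for the mean of 3 days. The replicate numbers of the labels name single animals and pair none, so the pairs used were those of the slides.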
